A study of Mus musculus with 12 samples.

Results

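Enhancers that were active in adult hematopoietic stem cells but not in fetal ones were followed here through the promoters they touched. The members are 2-kb bins that the deposited table marks as an active enhancer in adult bone marrow cells, not as an active enhancer in fetal liver cells, and as neither an active nor a bivalent promoter in either population, and that lie on the same chromosome as the captured promoter. This gave 2789 contacts of 88475 within chromosomes (89545 in all), 1499 in the first capture batch and 1290 in the second. They fell on 2110 bins, 3.11% of the 67766 bins contacted within chromosomes, and reached 751 of 1939 promoters in the first batch (38.7%), 623 of 1814 in the second (34.3%), or 1277 genes.

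Contacts were measured by promoter Capture-C, in which crosslinked chromatin is cut with DpnII, ligated by proximity and enriched for fragments that carry selected promoters. The fetal population was stem cells of embryonic day 14.5 livers and the adult population was stem cells of the bone marrow of mice aged 6 to 8 weeks. Both came from B6129SF1 mice and were sorted by the same surface markers (lineage-negative, Sca1+, cKit+, CD135-), and no engineered allele or treatment is given for either. The labels list 4 fetal and 4 adult libraries, 2 per population and batch, while the table holds 1 value per population and batch, so no spread between libraries could be computed and no difference below was tested. Another 4 libraries, of the HPC7 cell line, were not analysed here.

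Enhancers are stretches of DNA that bind transcription factors and raise transcription of genes that may lie far along the chromosome, often through looping to the promoter. Active enhancers usually carry both monomethylated H3K4 and acetylated H3K27, primed ones the first mark without the second, and poised ones the repressive trimethylated H3K27. In blood formation, enhancers of factors such as Gata2, Runx1, Tal1 and Meis1 are known to direct stem cell identity.

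The target genes ranged from promoters with many such bins to genes with large expression differences, and 4 of them are shown by the RefSeq bases before their start (GRCm38.p6, the 250 bases upstream, 5′ to 3′ on the gene's strand). Fadd (chr7:144582442-144582691, minus strand) had the most members of any first-batch promoter and Spop (chr11:95413833-95414082, plus strand) had 9, nearly all called in adult cells. Fos (chr12:85473640-85473889, plus strand) and Jun (chr4:95052223-95052472, minus strand) were among the 5 target genes with the largest adult excess of expression. Jun was not marked as differentially expressed. Capitals mark GATC, the DpnII site that sets the ends of captured fragments, and GGGCGG on either strand, the core of the GC box bound by Sp1-family factors.
Fadd: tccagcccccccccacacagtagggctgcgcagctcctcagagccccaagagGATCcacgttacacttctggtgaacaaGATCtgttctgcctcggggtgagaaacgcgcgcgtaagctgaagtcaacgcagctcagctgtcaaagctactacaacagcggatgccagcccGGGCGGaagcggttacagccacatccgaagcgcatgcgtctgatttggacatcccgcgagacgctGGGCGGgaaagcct
Spop: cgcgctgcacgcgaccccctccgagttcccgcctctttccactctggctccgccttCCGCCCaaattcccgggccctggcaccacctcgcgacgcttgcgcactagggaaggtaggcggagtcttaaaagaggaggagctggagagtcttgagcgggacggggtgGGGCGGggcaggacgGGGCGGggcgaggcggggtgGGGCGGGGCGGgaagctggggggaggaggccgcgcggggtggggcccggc
Fos: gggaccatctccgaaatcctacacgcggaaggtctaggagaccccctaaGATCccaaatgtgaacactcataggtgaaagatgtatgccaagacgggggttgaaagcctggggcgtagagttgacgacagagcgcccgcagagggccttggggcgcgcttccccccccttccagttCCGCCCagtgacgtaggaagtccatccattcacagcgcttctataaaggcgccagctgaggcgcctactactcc
Jun: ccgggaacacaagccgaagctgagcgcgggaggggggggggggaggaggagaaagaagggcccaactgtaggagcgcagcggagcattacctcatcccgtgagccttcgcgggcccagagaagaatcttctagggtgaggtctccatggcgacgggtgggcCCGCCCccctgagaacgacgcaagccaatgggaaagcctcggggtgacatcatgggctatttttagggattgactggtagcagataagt
Fadd had 2 GATC sites and 2 GC box matches in these bases, Spop none and 5 (of which a pair overlap), Fos 1 and 1, and Jun none and 1. GATC occurred in 41.9% of all 32851 RefSeq promoters over the same bases and GGGCGG in 32.7%. By symbol, 942 of the 1277 target genes matched a RefSeq promoter, 684 of them a single entry, and 57.0% of those held GGGCGG against 58.8% of 1179 captured genes without a member contact. GATC was held by 44.4% of the former and 37.3% of the latter. The RefSeq start can differ from the captured transcript's start, and the member bins themselves are on mm9 and are given by position only.

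Most member bins stood alone and were contacted by few genes. Of the 2110 bins, 1693 were contacted by promoters of 1 gene and 417 by more, 22 of these by at least 4. Adjacent members joined into 1623 runs, 1191 of a single bin and none longer than 5 bins (10 kb). A listed bin active as an enhancer in fetal cells lay directly next to 542 members (25.7%, exact 95% interval 23.8 to 27.6), so for these the adult-only mark bordered an element active in fetal cells. Intervals on shares here are exact Clopper-Pearson 95% intervals, those on medians exact order-statistic intervals and those on differences Newcombe intervals. They cover counting error only, and neighbouring bins and contacts of 1 promoter are not independent.

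In fetal cells most of these bins were already open. Accessible chromatin (ATAC) in fetal cells was marked at 1370 of 2110 members (64.9%, 62.8 to 67.0). In adult cells somewhat more were open, 1492 (70.7%, 68.7 to 72.6). Bins active only in fetal cells were likewise mostly open in adult cells, at 68.9%. Both populations shared open chromatin at 57.7% of members, 13.0% were open in adult cells only, 7.20% in fetal cells only and 22.1% in neither. The share open in fetal cells lay between that of bins active in both (90.0%) or in fetal cells only (80.4%) and that of bins active in neither (31.8%). The rule set the fetal enhancer mark itself, so part of that order follows from the choice of bins.

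A minority carried a primed or poised mark in fetal cells. Of the members 214 (10.1%) were marked as primed enhancers in fetal cells, 8 (0.38%) as poised and none as both, together 222 (10.5%, 9.24 to 11.9). Bins active in neither population were primed in fetal cells at 2.30%. In the mirror class, bins active only in fetal cells, 6.92% were primed or poised in adult cells. Among the members 670 (31.8%) were neither open nor primed nor poised in fetal cells. The batches differed little, with 64.7% and 65.7% open and 10.5% and 9.88% primed or poised in the first and second batch.

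**Figure D1:**
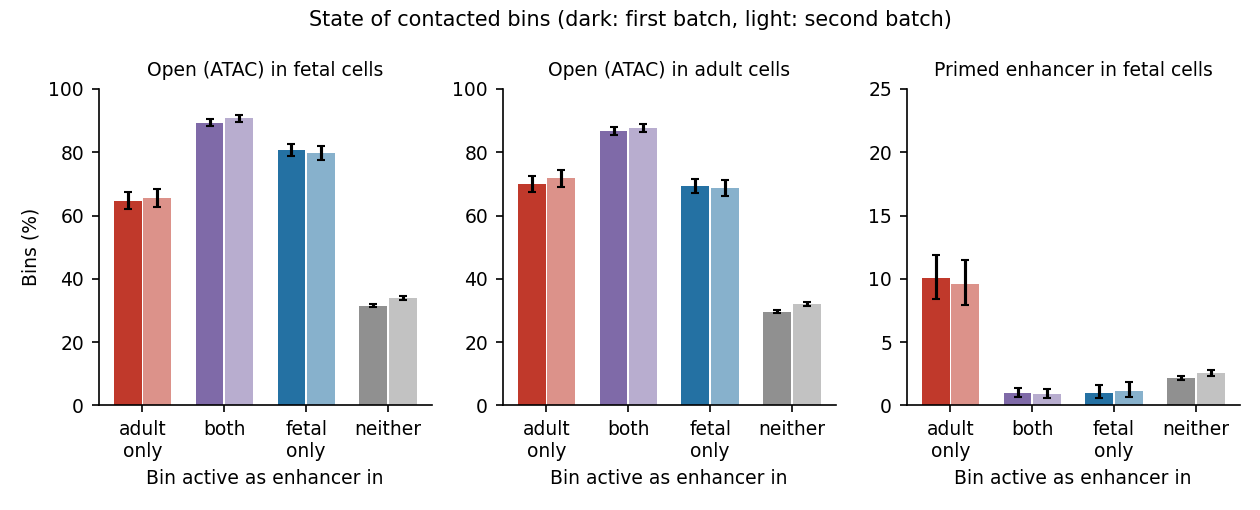
Percent of contacted bins marked as open in fetal cells, open in adult cells and primed in fetal cells, for bins active as enhancers in adult only, both, fetal only or neither, per batch; bars start at 0 and error bars are exact 95% intervals (counting error only). Adult-only bins were open in fetal cells at 64.7% and 65.7% and were primed there at 10.1% over both batches, against 2.30% of bins active in neither. The last panel has a smaller scale, and its low bars for the 2 kinds active in fetal cells follow from that mark.

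Contacts at these bins were more often called in adult cells only than listed contacts in general, but many others were called in fetal cells. A contact is adult-specific where only the adult score passed the authors' threshold, fetal-specific where only the fetal score did, and shared where both did. In the first batch 618 members were adult-specific, 461 fetal-specific and 420 shared, where 35.7%, 39% and 25.3% of all listed contacts fell in those classes. In the second batch the counts were 473, 317 and 500, beside 29.3%, 34% and 36.7% of all listed contacts. Among contacts called in a single population, first-batch members had an adult share of 57.3% (54.3 to 60.2) and second-batch members 59.9% (56.4 to 63.3), where all listed contacts had 47.9% and 46.3%.

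Set beside other distal bins, members leaned furthest to adult. Bins active in neither population gave an adult share of 45.9% and 44.6%, which is 11.3 points (8.30 to 14.3) and 15.3 points (11.7 to 18.7) below the members. Bins active only in fetal cells gave 44.8% and 40.5%. Bins active in both came close, at 54.1% and 53.6%, and the difference of 3.20 points in the first batch had an interval from -0.28 to 6.65 that included 0, while the 6.32 points of the second did not (2.2 to 10.4).

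The shares also differed widely with distance from the promoter. Between 20 and 60 kb, 74.5% and 89.9% of population-specific member contacts were adult-specific, but bins active in neither were also high there, at 68.2% and 82.5% (differences of 6.33 points, -2.88 to 14.0, and 7.41 points, 2.99 to 10.7). From 60 to 200 kb members gave 60.1% and 46.6%, against 49.3% and 33.5% for bins active in neither. Beyond 200 kb they gave 49.7% and 40.2%, against 39.9% and 25.6%. Within these 3 classes the margin over bins active in both lay inside the counting error in both batches. Under 20 kb there were 27 members in the first batch, with an adult share of 55.6% (30.8 to 78.5) beside 65.9% for bins active in both, and 3 in the second. Pooled beyond 60 kb, second-batch members were therefore called more often in fetal cells, with an adult share of 45.3% (41.0 to 49.6), though 13.3 points (9.04 to 17.6) above bins active in neither at that distance.

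**Figure D2:**
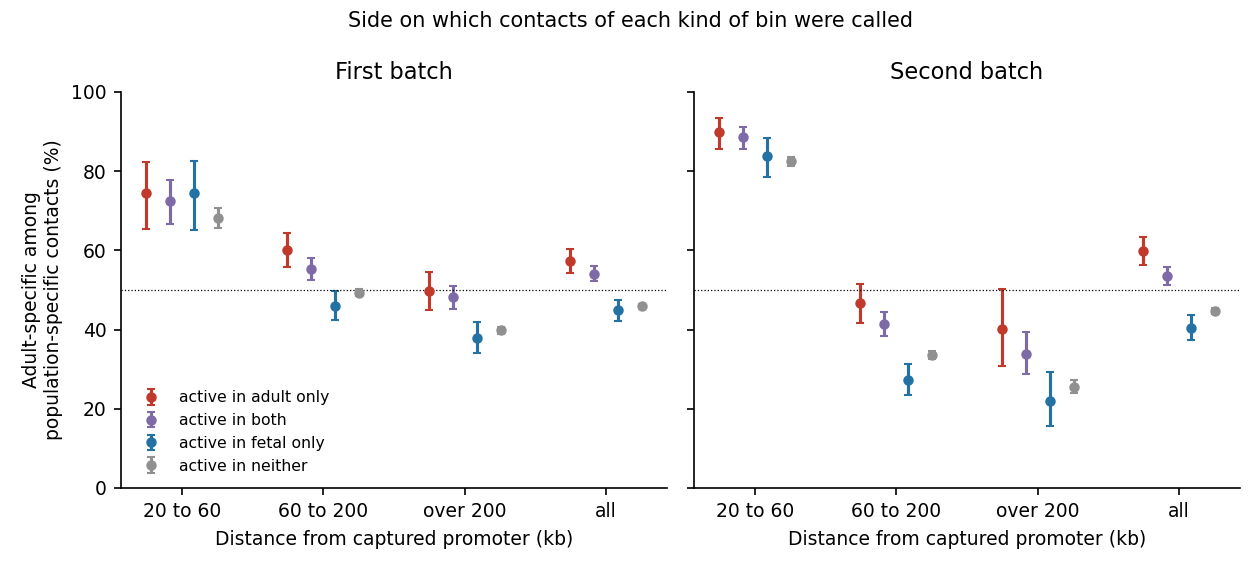
Adult-specific contacts as a percent of contacts called in a single population, by distance from the captured promoter in kb and by enhancer class of the bin, per batch; points are shares, error bars exact 95% intervals and the dotted line 50%. Over the 3 distance classes drawn, shares were lower at longer distance, and adult-only bins had the highest point in each, though their margin over bins active in both lay inside the counting error in all 3, and their margin over fetal-only bins did so at 20 to 60 kb, in both batches.

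The count ratio leaned the same way but by little, over contacts that had all passed the calling threshold in at least 1 population. It is given as log2 of adult over fetal counts, each plus 1, minus the median over all listed within-chromosome contacts of the batch, so 0 is the typical contact. For members the median was 0.24 (0.14 to 0.30) in the earlier and 0.15 (0.10 to 0.18) in the later batch, where bins active in neither had -0.05 and -0.03, bins active only in fetal cells -0.05 and -0.09, and bins active in both 0.14 and 0.08. Without the subtraction the second-batch median was -0.080. Median raw counts were 10 adult and 10 fetal among first-batch members, 27 adult and 28 fetal among second-batch members, so a typical first-batch member rests on few reads.

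Large differences in this scaled ratio ran mostly towards adult. The subtracted median was -0.14 (first) and -0.23 (second). A 2-fold difference here was thus a smaller excess in adult counts, or a larger one in fetal counts. Among members with at least 20 counts over both populations, 75 of 733 (10.2%) in the first batch were at least 2-fold higher in adult cells, beside 6.76% of all such contacts, and 20 (2.73%) at least 2-fold higher in fetal cells, beside 5.46%. In the second batch 129 of 1283 (10.1%) were higher in adult cells, beside 7.25%, and 42 (3.27%) in fetal cells, beside 7.61%.

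**Figure D3:**
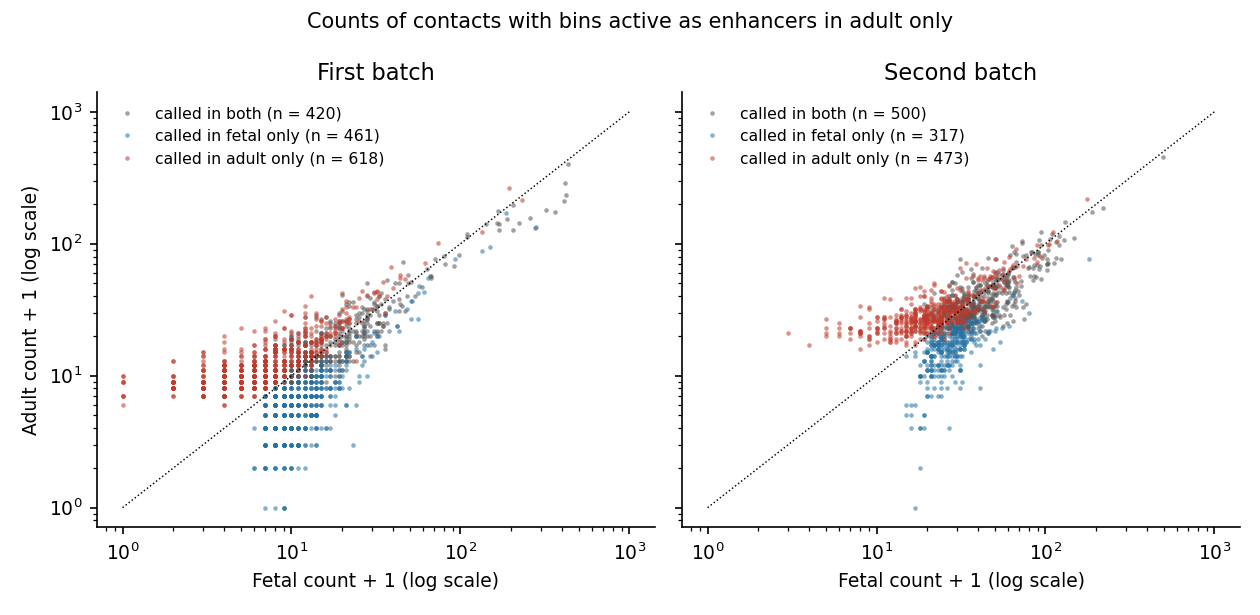
Adult against fetal count, each plus 1 and on log scales, of every member contact, coloured by the population in which the contact was called, per batch; the dotted line marks equal counts. The 618 and 473 adult-specific contacts lie mostly above the line and reach down to very low fetal counts, while first-batch counts are lower than second-batch counts.

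The same lean appeared within promoters, where viewpoint and expression are shared. The median ratio at member bins exceeded that at bins active in neither at 455 first-batch promoters and was below it at 286, and did so at 359 against 251 second-batch promoters. Against bins active only in fetal cells the counts were 280 against 192 and 205 against 136. Against bins active in both populations they were 322 against 275 and 246 against 240. In neither batch could the adult-only bins of a promoter thus be set apart from its bins active in both (median differences of the ratio 0.065, 0 to 0.17, and 0.0030, -0.043 to 0.077). Within promoter and distance class, the median difference from bins active in neither was 0.17 and 0.11 by batch, beside 0.22 and 0.12 within promoter alone. From bins active only in fetal cells it was 0.16 and 0.10, beside 0.16 and 0.18. From bins active in both it was 0.048 and -0.00045.

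Individual bins, mostly contacted by different promoters in each batch, did not carry their lean from batch to batch. Of 230 members contacted in both batches, mostly by different promoters, 78 leaned to adult in both, 43 to fetal in both and 109 in opposite directions (Spearman rho 0.057 and Pearson r 0.067 over 230 bins, given as a description). The batches also shared 6 contacts of the same captured fragment, under different gene names. Such a fragment is named for Pdcd10 in the first batch, and for its divergent neighbour Serpini1 in the second. Its bin at chr3:75534001-75536001 was adult-specific both times, with 6 fetal and 12 adult counts as Pdcd10 and 14 and 38 as Serpini1. First-batch and second-batch ratios at this fragment were 0.65 and 0.57, 0.14 and 1.18, -0.27 and 0.17, and 1.04 and 1.61. For the remaining shared contacts they were 1.88 and 0.69 (Brd8, then Kif20a) and 0.42 and 0.10 (Glod4, then Rnmtl1).

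The fetal state of a bin separated the contacts weakly and not alike in both batches. Members primed in fetal cells had an adult share of 66.7% (56.5 to 75.8) among first-batch contacts but 45.8% (34 to 58.0) among second-batch contacts, and those without a fetal enhancer mark 56.5% and 61.2%. Members open in both populations gave 60.1% and 61.7%, and those open in neither 52.6% and 57.0%. Those open in adult cells only gave 61.4% (52.8 to 69.5) and 56.0% (46.5 to 65.2). Those open in fetal cells only gave 42.9% (31.6 to 54.6) and 61.5% (47.0 to 74.7), intervals that overlap. Members next to a bin active in fetal cells were shared more often than the rest, at 34.2% (29.6 to 39.1) against 25.8% (23.2 to 28.4) and, in the later batch, 48.9% (43.7 to 54.1) against 34.7% (31.6 to 37.8). Their adult share among population-specific contacts lay within the others' counting error, at 60.5% against 56.3% (first) and 58.2% against 60.4% (second).

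Fadd, an adaptor of death receptor signalling, had 10 member bins, the most in the first batch. Most lay in a pair at -91 and -89 kb and in a cluster from +185 to +207 kb, signed along the chromosome. Its strongest adult contact was at chr7:151966001-151968001, primed in fetal cells, with 19 fetal and 40 adult counts and a score of 8.58 and 27.58. In all 9 of the 10 had a ratio above 0 and 8 were shared, so most were contacts present in both populations with more adult counts. Fadd expression was level, at 3.20 fetal and 3.22 adult FPKM (fragments scaled by transcript length and library size).

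Spop, a substrate adaptor of Cullin-3 ubiquitin ligases, showed the opposite make-up. Of its 9 members 8 were adult-specific and none shared, spread from -309 to +419 kb, but each was faint, with 3 to 17 fetal and 6 to 20 adult counts. Its FPKM was 25.6 in fetal and 36.2 in adult cells. The other first-batch promoters with 9 members were Alkbh7, Gata2, Hmgb1_1, both Lsg1 promoters, Meis1_1 and Spata5_1, where a number after the name tells apart promoters of a gene, and adult-specific members ranged from 1 for each Lsg1 promoter to 5 for Alkbh7.

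Gata2, a zinc finger factor required by blood stem cells, had 9 members, 4 adult-specific, 1 fetal-specific and 4 shared. The contact at -34 kb had 12 fetal and 39 adult counts, and those at -86 and -82 kb had 13 and 23, and 14 and 25. Next to the promoter, at -6 kb, the counts were level at 184 and 170. A group at +284 to +288 kb held 3, 11 and 11 fetal and 12, 11 and 21 adult counts. Ratios were above 0 at 8 of the 9 bins, and Gata2 expression was 21.9 FPKM in fetal and 57.3 in adult cells.

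Meis1, a homeobox factor of stem cells, was contacted through 3 captured promoters. Meis1_1 had 9 members, 3 adult-specific, 2 fetal-specific and 4 shared, and the bin 3 kb from it, closed in fetal and open in adult cells, had 194 fetal and 263 adult counts. A cluster of 5 contacts, 4 shared and 1 adult-specific, lay at -153 to -141 kb. Its bin at chr11:18778001-18780001 had 35 fetal and 37 adult counts with Meis1_1, 10 and 12 with Meis1 and 13 and 27 with Meis1_2. The 2 fetal-specific members, at -73 and -59 kb, were closed in both populations. Meis1_1 FPKM was 15.7 in fetal and 35.3 in adult cells.

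Myc, a driver of growth and division, had a compact block of adult-specific contacts. The 3 adjacent bins from chr15:62038001-62040001 on, 220 to 224 kb away, had 3, 5 and 4 fetal and 17, 8 and 10 adult counts, and all were closed in fetal and open in adult cells. A further member 1736 kb away, open in both, had 5 and 11. All 4 were adult-specific, while Myc expression was 44.8 FPKM in fetal and 40.8 in adult cells. The nearby second Myc promoter was listed with the middle bin alone of the block, at 6 and 9 counts, and the far bin with 14 and 13.

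In the second batch Znrf1, a ubiquitin ligase, and Suv39h2, a histone H3K9 methyltransferase, had 11 members each. At Znrf1 10 were shared and 1 was fetal-specific, from 52 to 122 kb, and the strongest bin had 109 fetal and 118 adult counts. No Znrf1 member was adult-specific, while its FPKM was 18.6 in fetal and 33.8 in adult cells. At Suv39h2 2 were adult-specific, 1 fetal-specific and 8 shared, over a stretch of bins 251 to 299 kb away and a pair near 56 kb, with 20 to 49 fetal and 20 to 47 adult counts. Next came Asf1b, a histone chaperone, with 9, and Dok3, Mgat5, Pfkfb3 and Tmem176a with 8.

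**Figure D4:**
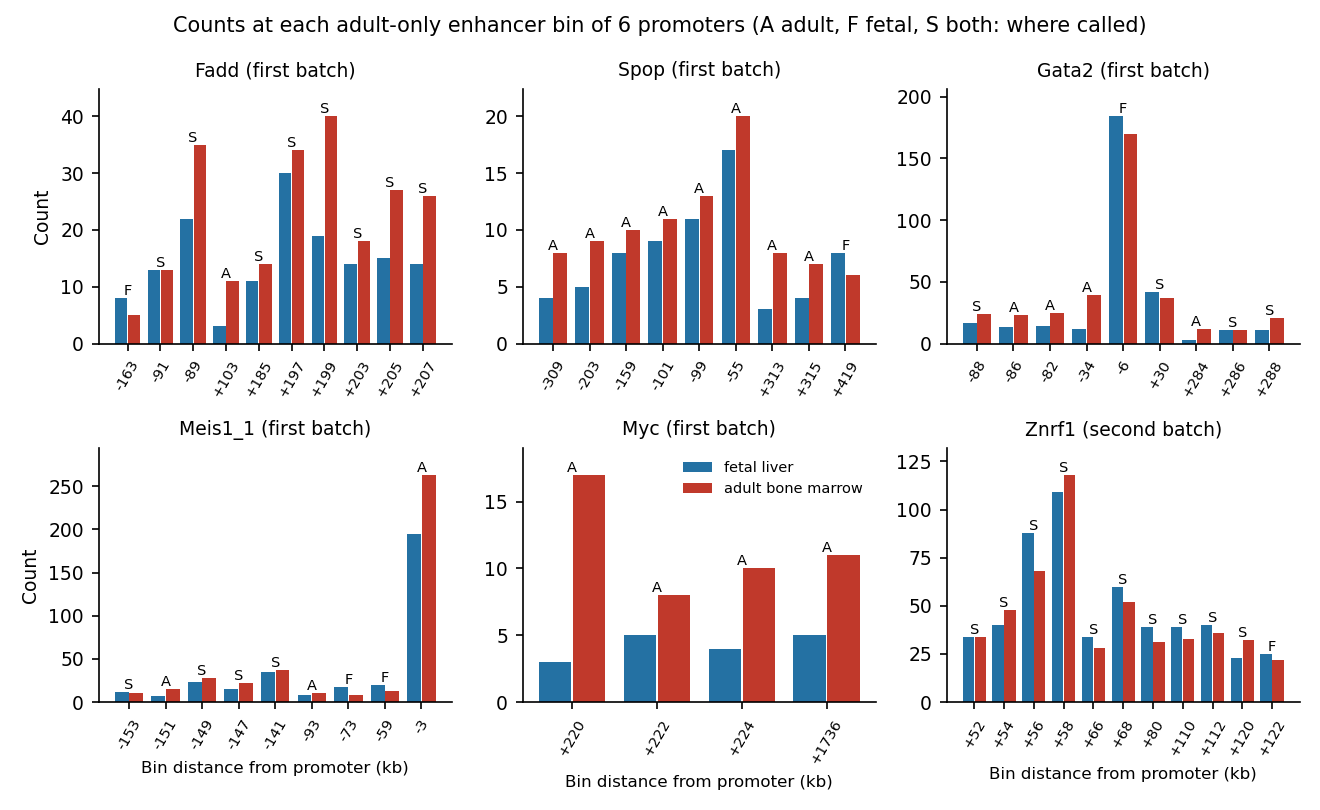
Fetal (blue) and adult (red) counts at each member bin of 6 promoters, ordered by distance from the promoter in kb, signed along the chromosome and not to scale; A, F and S mark contacts called in adult only, fetal only or both. Every Myc member is adult-specific with 3 to 5 fetal and 8 to 17 adult counts, most Fadd and Znrf1 members are shared, and the bins next to Gata2 and Meis1_1 have the highest counts.

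The largest adult ratios rested on low fetal counts. In the first batch the contact of 1700052N19Rik had 3 fetal and 19 adult counts, that of Rps3a, a ribosomal protein gene, 4 and 22, and that of Luc7l, a splicing-related gene, 5 and 21 at a bin primed in fetal cells. Tbx3, a T-box factor, had 8 and 30 counts at a bin 36 kb away that was open in adult cells only, although its FPKM was 0 in both populations. Among second-batch members Sipa1l1, a Rap GTPase-activating gene, had 4 and 26 and Parp14 7 and 33. At Parp14, an ADP-ribosyltransferase, 3 adjacent bins were all adult-specific. The bin beside that of Sipa1l1 had 24 and 13, so that high ratio did not extend to the neighbouring bin. Tk2 and Nt5c3_1 were also in the set, with 4 fetal counts each and 22 and 20 adult counts.

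Members that leaned furthest to fetal cells differed as widely in counts. Notch4, a receptor gene, had 22 fetal and 2 adult counts at a bin 118 kb away, open in both populations. Among second-batch members Rbak had 26 and 3 and Mrps15, a mitochondrial ribosomal protein gene, 40 and 7. The same set held Pkig_1, Ddx56, Lsm4 and Smad4_1 from the first batch and Zfp141, Gen1 and Pfdn1 from the second, with 17 to 23 fetal and 3 to 5 adult counts. The bins of Notch4 and Mrps15 were open in adult cells and marked active there, yet the contact was called in fetal cells.

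The highest adult scores belonged to contacts strong in both populations. Among second-batch contacts Neat1, a nuclear long noncoding RNA, had 218 fetal and 186 adult counts 40 kb away (adult score 43.55). Nfix, a factor of stem cell survival, had 129 and 146 at 61 kb (36.83). In the first batch 3 contacts of Sfi1_1 led, with 422 fetal and 234 adult counts at the strongest, and all 8 of its members were shared and fetal-leaning. That promoter also had 59 listed contacts with other chromosomes, and the part of near-identical sequence in its counts was not tested.

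A few bins were contacted by many genes. The bin chr7:149572001-149574001 was contacted by H19, Igf2, Igf2as, Lsp1, Mrpl23 and Tnni2, through 7 promoters, with 125 fetal and 104 adult counts in all. It was open in both populations, and 2 of its contacts were adult-specific, 3 fetal-specific and 2 shared. The bins chr2:25118001-25120001 (431 and 337 counts) and chr2:25352001-25354001 (265 and 297) were each contacted by 6 genes, among them Abca2, Npdc1 and Ssna1. For all of these bins the sums are of raw counts and join contacts of both batches, which differ in depth and threshold.

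Target genes were higher in adult cells about as often as captured genes in general. Expression was higher in adult cells at 50.3% of first-batch target promoters (46.7 to 54.0) and 53.0% of second-batch ones (49.0 to 56.9), against 51.7% and 54.1% of all captured promoters with unequal values (51.4% and 54.1% of all). A 2-fold adult excess on the scale of FPKM plus 1 was found at 101 of 751 first-batch targets (13.4%), beside 13.4% of all captured promoters, and at 102 of 623 second-batch targets (16.4%), beside 16.2%. A 2-fold fetal excess was found at 41 (5.46%), beside 5.11%, and at 67 (10.8%), beside 11.3%. All second-batch promoters were marked as differentially expressed in the table, but 276 of the 751 first-batch targets. A lower FPKM in a sorted population can reflect fewer cells of a type or less RNA per cell, which cannot be told apart.

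Stem cell markers were present in both populations, and 2 of the 8 captured were higher in fetal cells. Kit, on which the cells were sorted, had 32.8 fetal and 50.5 adult FPKM. Flt3, a marker excluded by the sort, had 6.20 and 3.81. Markers of other blood cells were higher in the fetal population: the erythroid genes Klf1 (24.0 fetal and 2.4 adult FPKM) and Epor (15.8 and 6.22), 5 of 5 captured macrophage genes with a summed 22.9 and 2.05, and 3 of 3 captured granulocyte genes with 71.2 and 5.18. None of these was listed at 0, and Mpo, itself a target gene, made up most of the granulocyte sum. Whether such cells had a part in the contacts or expression values was not tested.

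Promoters with adult-only bins usually had fetal-only bins as well, 63.6% and 54.9% of them by batch beside 44.3% and 36.8% of all captured promoters, and they had more listed contacts than other promoters, with a median of 33 against 11 and 30 against 9. Where only the adult-only kind was contacted, 54.8% (48.7 to 60.8) and 59.4% (53.4 to 65.2) of promoters were higher in adult cells, against 47.1% and 49.5% where only the fetal-only kind was. Promoters that contacted neither kind gave 55.3% and 56.7%, so those with the adult-only kind alone were not set apart from them. Promoters with at least 3 more adult-only than fetal-only bins were higher in adult cells at 49.3% of 73 (first batch) and 64.1% of 92 (second, 53.5 to 73.9). With the balance reversed, the shares were 43.4% of 154 and 37.8% of 111 (28.8 to 47.5). The contrast was thus larger in the second batch.

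The lean of member contacts did not follow expression of the target. At targets at least 2-fold higher in adult cells the adult share of population-specific member contacts was 56.5% and 57.7% in the batches, at targets within 2-fold 57.2% and 59.7%, and at targets at least 2-fold higher in fetal cells 61.1% (46.9 to 74.1) and 65.7% (53.4 to 76.7). Bins active in both populations did show an order with expression, in that sequence 59.4%, 54.0% and 42.5% for first-batch contacts, 61.1%, 53.6% and 41.5% for second-batch ones.

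**Figure D5:**
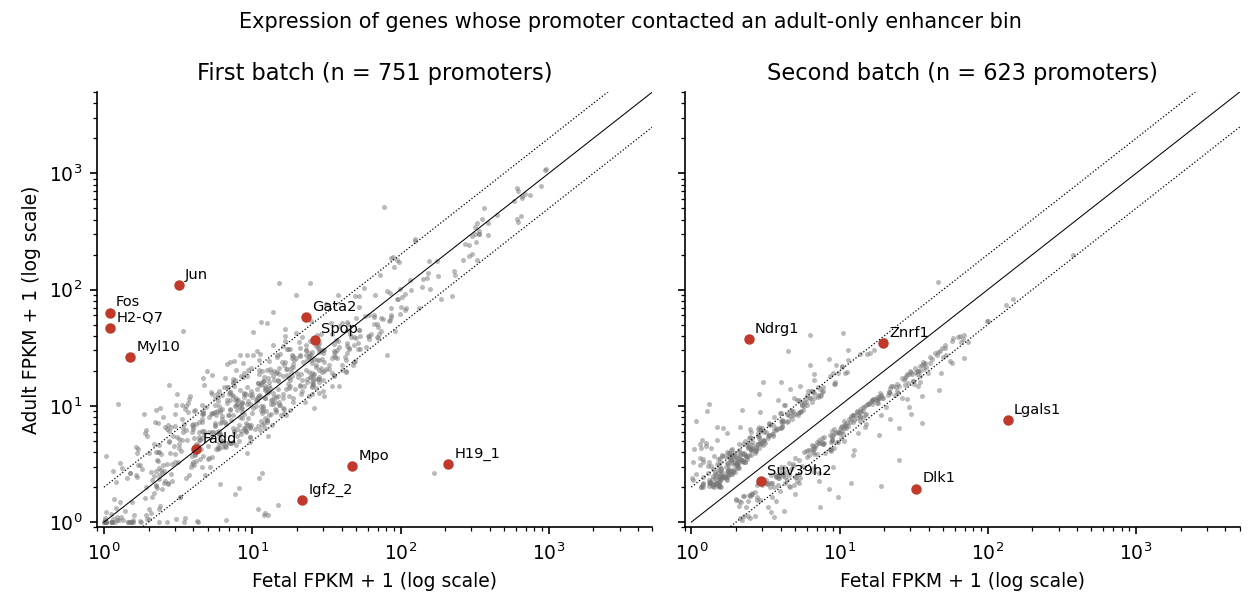
Adult against fetal FPKM plus 1, on log scales, of the 751 and 623 promoters that contacted a member bin; the solid line marks equality, the dotted lines 2-fold differences, and named genes are in red. The cloud is spread on both sides of the line, and the second batch has a gap along it since all its promoters were marked as differentially expressed.

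The 5 genes with the largest adult excess had 1 to 6 member contacts each. Fos and Jun, partners in the AP-1 factor, went from 0.0899 to 62.3 FPKM and from 2.18 to 109. Jun was nevertheless not marked as differentially expressed, while Fos, Myl10, Ndrg1 and H2-Q7 were. Fos had an adult-specific bin at 104 kb (13 fetal and 17 adult counts) and a fetal-specific bin at 92 kb (16 and 10), and Jun had adult-specific bins at 412 and 800 kb with 5 and 8, and 7 and 11 counts. Myl10, a myosin light chain gene, went from 0.508 to 25.3 FPKM with a single member of 4 and 13 counts. Ndrg1 went from 1.44 to 36.7 FPKM with 6 members, 2 adult-specific, 2 fetal-specific and 2 shared. H2-Q7, a class I histocompatibility gene whose reads may be split among close paralogs, went from 0.0969 to 46.0 FPKM with a single contact of 0 and 5 counts.

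Genes far higher in fetal cells also touched adult-only enhancers, with leans in both directions. Dlk1, an imprinted Notch-like gene, had 31.9 fetal and 0.942 adult FPKM, and its 4 members, 61 to 79 kb away, all leaned to fetal (34 and 27, 46 and 21, 73 and 32, 32 and 24 counts). Igf2_2, a promoter of an imprinted growth factor gene, had 20.6 and 0.536 FPKM and all 4 of its members leaned to fetal. Mpo, myeloperoxidase, had 46.1 and 2.04 FPKM, but all 3 of its members were adult-specific, with 7 and 13, 6 and 10, and 10 and 11 counts. H19_1, the imprinted noncoding gene beside Igf2, had 209 and 2.15 FPKM and members of each kind of call. Lgals1, a galectin gene, had 135 and 6.49 FPKM and 1 shared member with 493 and 450 counts at 14 kb.

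By gene list, blood transcription factors had the most member contacts, and also the most captured promoters (31), and leaned to adult. Of 20 captured factors 14 had member contacts, beside 1277 of the 3352 genes with listed contacts. Of their 61 contacts 29 were adult-specific, 14 fetal-specific and 18 shared. Over all members 41.2% (first batch) and 36.7% (second) were adult-specific and 30.8% and 24.6% fetal-specific. A ratio above 0 was found at 43 of the 61, beside 58.0% and 58.4% of all members. The median ratio was 0.41, beside medians of 0.24 and 0.15 over all members. Gata2 and the Meis1 promoters gave 22 of the 61. Some bins were counted through more than 1 promoter of a gene, as at Meis1, Lmo2 and Myc, so the 61 contacts are not independent. Runx1, a master factor of blood stem cell emergence, had 2 adult-specific members with 43 fetal and 55 adult counts in sum, Hoxa9_2 2 with 8 and 22, and Etv6, an ETS-family repressor, 3 with 13 and 25. A median ratio below 0 was found at 5 promoters: Tcf3 (79 and 53), Ikzf1 (29 and 21) and Ikzf2 (9 and 3), with lower FPKM in adult cells, and Tal1 (244 and 209) and Nfe2 (28 and 16), with higher FPKM there (26.7 and 30.4, and 55.4 and 102). Another captured promoter of that gene, Nfe2_2, went the other way, with 1 adult-specific member of 20 and 36 counts.

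Interferon and class I histocompatibility genes had few members, nearly all called in adult cells only. Of 13 captured genes 7 had a member, with 8 contacts, 7 adult-specific and 1 fetal-specific. Over all members the adult share of population-specific contacts was 57.3% (first batch) and 59.9% (second). Of the 7 genes 5 were at least 2-fold higher in adult cells, as were 10 of all 13. H2-K1 had 3 fetal and 11 adult counts and 76.1 and 507 FPKM, and H2-T23 34 and 50 counts and 12.8 and 62.6 FPKM. H2-T22 contacted the same bin as H2-T23, so these contacts are not independent, and the adult-specific contact of Irf1 had level counts of 14 and 14. Irf8, a factor of monocyte development, had 2 adult-specific members (38 and 63 counts in sum) with 7.48 fetal and 0.925 adult FPKM.

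The other lists were smaller or mixed. Genes linked to adult stem cells gave 26 contacts of 8 genes out of 15 captured, 8 adult-specific, 9 fetal-specific and 9 shared, with a median ratio of 0.16. Within it, Txnip, an inhibitor of thioredoxin, had 43 and 57 counts and went from 36.7 to 88.7 FPKM, while Procr, the endothelial protein C receptor, had 23 and 9 over 2 fetal-specific members. Fetal stem cell genes (Igf2, Arid3a and Sox17 of 9 captured) gave 7 contacts with a median of -0.18, of which 1 had a ratio above 0. Cell cycle genes gave 8 contacts of 4 genes, 2 adult-specific, 2 fetal-specific and 4 shared, and megakaryocyte genes 1 contact each for Pf4 (8 and 15) and Gp5 (20 and 13). The 2 captured lymphoid genes had none.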

How the data were processed

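Promoter Capture-C contacts of fetal liver and adult bone marrow stem cells were taken from the deposited table of significant interactions. Per the submitters' processing notes, Trim Galore 0.41, Bowtie2 2.2.2 and build mm9 were used. Each row holds a count deposited per population, a score from the authors' caller, the FPKM of the target gene as deposited, and marks of 0 or 1 for chromatin states, per the file headers. How libraries were pooled, and how the authors defined states, score and FPKM, is not given in the sources used here. Scores above 0 began at 1.3 in the first batch and at 2 in the second. Counts over listed within-chromosome contacts summed to 892529 fetal and 759999 adult (first batch) and to 2014162 and 1813689 (second), so second-batch count ratios rest on more reads.

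Members were picked by their marks. Calls were counted per batch, and ratios and FPKM were compared on log2 after adding 1 (Python 3.11.15, pandas 2.3.3, scipy 1.17.1). With 1 value per population and batch no test was run. The scripts were tested on simulated data. Named promoters are the 5 with most members, the 5 highest and 5 lowest ratios (at least 20 counts) and the 3 highest scores per batch, the 5 bins with most genes, the 5 largest FPKM differences each way, and genes of set lists. The members and lists were chosen with earlier results of these data known. A gene that met the rule is not reported here.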

Additional observations from a re-analysis of the deposited data

Results flagged for a closer look

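Beside the contacts within chromosomes, 23 listed contacts joined a promoter to an adult-only enhancer bin on another chromosome, which the report's comparisons do not use. They came from 11 promoters and held 12491 fetal and 14568 adult counts, with 3 called in adult cells only, 3 in fetal cells only and 17 in both. Most counts belonged to Pisd-ps2, whose strongest such contact had 4589 fetal and 6124 adult counts. The series has no control libraries for such contacts, and the part of repeated sequence in them was not tested.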

How the results depend on the processing

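No paired analysis was possible because the table holds 1 pooled value per population and batch. Of 86 alternative settings over 12 results, 71 stayed within the reported interval, 13 moved beyond it and 2 turned the direction. Some of the 71 could not move, because they removed no member contact or target promoter, and these say nothing about stability. Leaving out contacts with very high counts removed no population-specific member in either batch. In the second batch, leaving out the Sfi1 and Pisd-ps2 promoters kept all 790 such members. A minimum FPKM and the differential expression mark each kept all 623 second-batch targets. The adult share in the second batch fell to 45.3% beyond 60 kb and rose to 89.9% at 20 to 60 kb. In the first batch it rose to 74.5% at 20 to 60 kb, to 62.1% with the score threshold raised by 1 and to 60.3% at bins open in adult cells. The margin over bins active in neither was added as a result after seeing the data. At 20 to 60 kb it was 6.33 points (first, interval -2.88 to 14.0, which includes 0) and 7.41 points (second). With nearby bins of a promoter merged, small gaps allowed, it was 20.1 points (second). The median ratio was 0.33 (first) and 0.071 (second) when scaled by total counts, 0.10 (first) and -0.080 (second) with no scaling, and 0.14 (first) with at least 20 counts. Among target promoters with at least 2-fold differences, 71.1% (first) and 60.4% (second) were higher in adult cells. Such a lean was also found over all captured promoters, so it was not particular to the targets. There 259 were at least 2-fold higher in adult and 99 in fetal cells (first), and 293 and 205 (second). Setting a threshold of 2 was not run in the second batch, where it is the authors' own. Depth limits single bins, at a median of 10 counts per population in the first batch. The causes of these shifts were not tested.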
